A study of Mus musculus with 6 samples.

Results

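The SOCS family comprises Socs1 to Socs7 and Cish, genes whose products damp the response of a cell to cytokines. Their transcripts were examined in mouse bone marrow LSK cells, the Lin-Sca1+c-Kit+ fraction in which blood stem cells and multipotent progenitors are found. A probe set was taken where the platform annotation names one of these genes and no other gene, which gave 24 of 45037 probe sets and covered all 8 genes of 18193 measured. The family was chosen from earlier results of this same comparison of SRF-null with control cells. The differences of its members between genotypes are therefore given as a description with their standard error and without a test, and they serve as support for nothing.

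All mice were C57BL/6 and carried Mx1-Cre, a recombinase driven by the interferon-responsive Mx1 promoter, which is not confined to blood cells. Control mice had Srf+/+ alleles, and the SRF-null group came from Srf flx/flx mice, in which Cre removes the gene of the transcription factor SRF. Both genotypes were given pIpC, an RNA mimic that induces interferon, from an age of 6 weeks, as 3 doses of 200 µg with 2 days between doses, and were analysed 35 days after the last dose. Each array held RNA of sorted cells from pooled animals, with 3 control and 3 SRF-null arrays. The size of the pools is not stated in the labels, so errors measure the spread between these samples, which may be technical.

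Cytokine receptors without kinase activity of their own work through JAK kinases, which phosphorylate STAT transcription factors. STATs then switch on SOCS genes, and the SOCS proteins bind phosphorylated receptors or JAKs through an SH2 domain and recruit, through the SOCS box, elongins B and C and the cullin 5 ubiquitin ligase. In blood stem and progenitor cells the pathway carries signals of interleukins, colony-stimulating factors and interferons. Cish and Socs2 are known as targets of STAT5, Socs3 of STAT3 and Socs1 of interferon signalling.

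Promoter sequence was held for 4 of the 8 genes (Cish, Socs1, Socs3 and Socs4) in a RefSeq table of build GRCm38.p6, as windows of 250 bases before to 50 bases after the annotated start. The windows of Cish, one of the 2 genes with the largest differences, and Socs3, the gene that varied most between control arrays, are shown 5′ to 3′ on the strand of the gene. Capitals mark the STAT motif TTCNNNGAA, which reads the same on both strands. The Cish window lies at chr9:107296409-107296708 on the plus strand and the Socs3 window at chr11:117969317-117969616 on the minus strand.
Cish: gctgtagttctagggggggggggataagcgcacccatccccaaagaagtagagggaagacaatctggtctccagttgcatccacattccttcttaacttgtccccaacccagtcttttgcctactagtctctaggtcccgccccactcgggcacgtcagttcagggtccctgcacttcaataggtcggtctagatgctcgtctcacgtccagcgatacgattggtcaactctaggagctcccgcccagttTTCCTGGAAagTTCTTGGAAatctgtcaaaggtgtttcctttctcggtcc
Socs3: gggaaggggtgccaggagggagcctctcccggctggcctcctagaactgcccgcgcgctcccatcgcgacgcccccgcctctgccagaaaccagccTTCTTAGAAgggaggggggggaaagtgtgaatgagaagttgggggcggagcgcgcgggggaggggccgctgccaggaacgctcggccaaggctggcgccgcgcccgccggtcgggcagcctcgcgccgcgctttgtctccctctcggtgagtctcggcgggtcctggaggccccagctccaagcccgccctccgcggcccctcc

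The Cish window held 2 matches, TTCCTGGAA at bases 1 to 9 and TTCTTGGAA at bases 12 to 20 counted from the annotated start. The Socs3 window held 1 match, TTCTTAGAA, at bases -154 to -146 relative to the start. The windows of Socs1 and Socs4 held 0. Of all 32851 promoter windows of this length, 8.30% held at least 1 match and 0.457% held at least 2. The interferon regulatory factor element, a pair of GAAA blocks with 2 bases between them, was searched on both strands and had 2 overlapping matches in the Socs1 window and 0 in the other 3, and occurred in 3.44% of all windows. The CArG box, the sequence SRF binds, had 0 matches in the 4 windows and occurred in 1.63% of all windows. A match is a stretch of letters and not a measured binding site, and its lack says only that these letters are not in this window.

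Values below are either deposited intensities, a linear signal per probe set and array, or log2 signals, which are log2(intensity + 16) after quantile normalization. Differences are SRF-null minus control on the log2 scale with the SE of the fit over all probe sets, and mean ± SD is over n = 3 arrays per group. Levels of different probe sets are not comparable, since each probe set has its own response. Median intensity was 200.4 to 292.2 per array and the upper quartile 5008 to 5312. The targeted gene, Srf, had a lower signal on its brighter probe set (difference -0.42, SE 0.14) and not on the other (0.10, SE 0.35), and neither value checks the deletion, since their position relative to the deleted part is not given. The Y-linked gene Eif2s3y was at a log2 signal of 4.37 on control replicate 2 (13.06 to 14.50 elsewhere), and Xist was at 5.03 on SRF-null replicate 1 (15.13 to 16.24 elsewhere). These 2 pools thus carried transcripts of 1 sex, and the other 4 of both.

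Within the family, Socs2 and Cish had lower signals in SRF-null cells, and among the other 6 genes the groups overlapped on every probe set but 1, of Socs6. All 6 probe sets of Socs2 and the 1 probe set of Cish were lower, with differences of -2.69 to -0.91. In 6 of these 7 the groups did not overlap. Over all 45037 probe sets, 4.50% showed such a separation with SRF-null lower and 4.73% with SRF-null higher. The remaining 17 probe sets of the family had differences of -0.53 to 0.59, with 6 lower and 11 higher and with 1 separation. Since the family was picked with this contrast known, nothing is read from these counts.

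**Figure D1:**
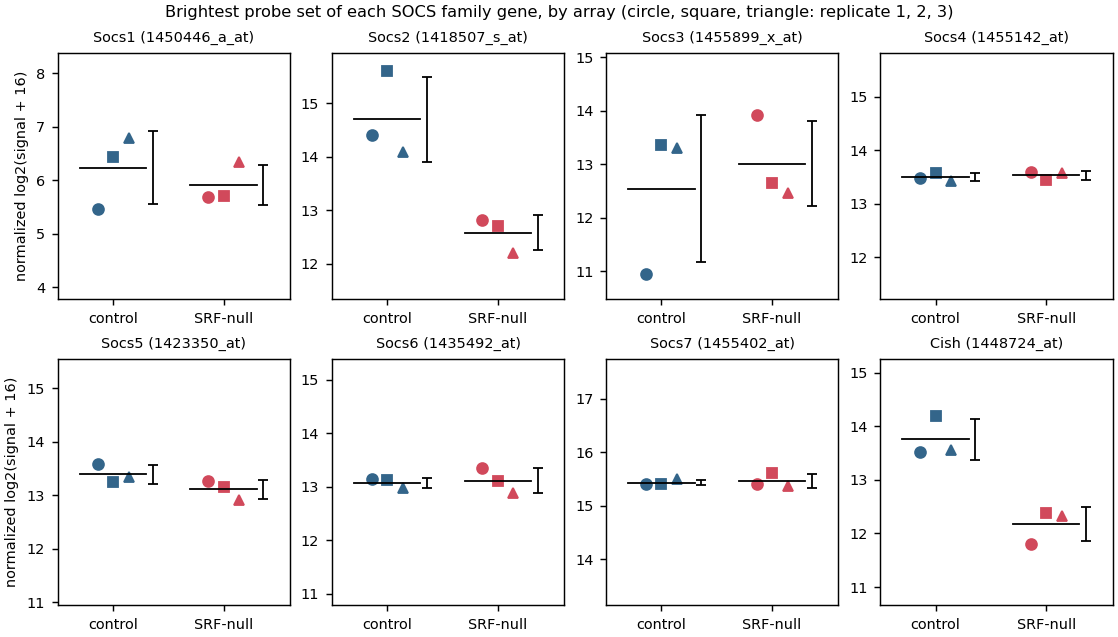
Normalized log2 signal (vertical axis, every panel spanning the same number of log2 units) of the brightest probe set of each SOCS family gene on 3 control and 3 SRF-null arrays. Points are arrays, horizontal lines group means and bars the SD; Socs2 and Cish are the 2 panels in which the groups stand apart, and Socs3 has the widest spread within the controls.

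Socs2, whose product restrains growth hormone receptor signalling and is induced by STAT5, had the widest range of the family over the 6 arrays. On its brightest probe set, 1418507_s_at, the intensity was 21483, 50985 and 17438 in control replicates 1 to 3 and 7196, 6497 and 4524 in SRF-null replicates 1 to 3. The lowest control array was thus above the highest SRF-null array, and control replicate 2 stood above both other controls. On the log2 scale the means were 14.69 ± 0.80 and 12.57 ± 0.33, a difference of -2.12 (SE 0.43), or 4.34-fold. The groups were separated by 1.26, and the controls themselves spanned 1.52, which is 2.88-fold.

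The second brightest Socs2 probe set, 1449109_at, showed the same order of arrays with a larger gap. Its intensity was 2513, 5402 and 1688 in controls and 594.4, 463.3 and 264.8 in SRF-null cells. The log2 means were 11.46 ± 0.83 and 8.77 ± 0.46, and the difference was -2.69 (SE 0.46), or 6.47-fold. These probe sets target 1 gene and share the same 6 RNA samples, so they are repeated readings and not replicates.

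The 4 other Socs2 probe sets had low intensities, between 2.9 and 237.7 over all arrays, and each was lower in SRF-null cells. The differences were -1.40 (SE 0.53) on 1442586_at, -0.91 (SE 0.23) on 1438470_at, -1.54 (SE 0.37) on 1441476_at and -1.86 (SE 0.40) on 1446085_at. On 1442586_at the groups overlapped, with control replicate 3 at an intensity of 54.7 and SRF-null replicate 1 at 73.4. On 1446085_at all 3 SRF-null arrays, at 9.0, 5.6 and 2.9, were under the offset of 16 added before the logarithm. There the difference became -3.29 when 1 was added in its place and -0.89 when 64 was, while on the brightest probe set these choices gave -2.12 and -2.11.

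Cish encodes the founding member of the family, a STAT5-induced protein that binds activated cytokine receptors such as those of erythropoietin and interleukin-2. Its 1 probe set, 1448724_at, had an intensity of 11756, 19422 and 12060 in controls and of 3639, 5167 and 5021 in SRF-null cells. Each SRF-null array was lower than every control array, and control replicate 2 was again the highest of the 6. The log2 means were 13.75 ± 0.38 and 12.17 ± 0.31, a difference of -1.58 (SE 0.26), or 2.99-fold. The gap of 1.14 between the groups was larger than the range within controls (0.68) or within SRF-null cells (0.56).

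**Figure D2:**
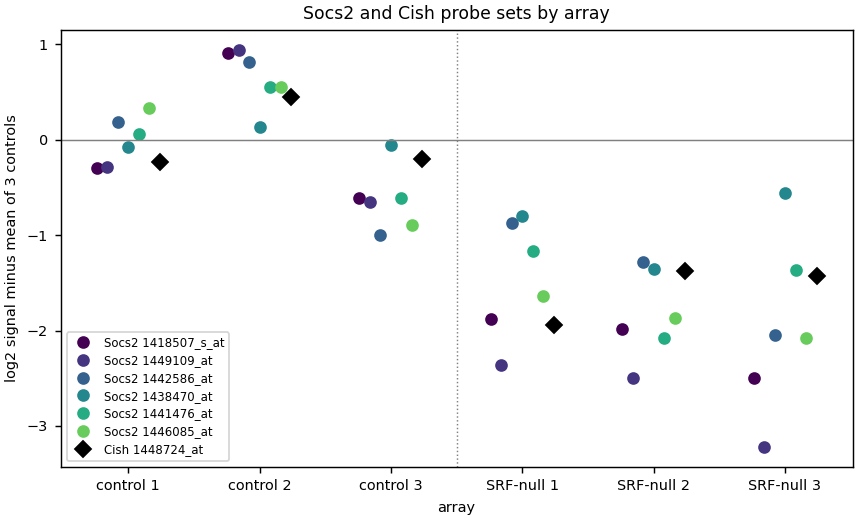
Log2 signal of the 6 Socs2 probe sets (circles) and the Cish probe set (diamonds) on each array, shown relative to the mean of the 3 controls of that probe set (horizontal line). All 7 probe sets have their highest value on control replicate 2, and their SRF-null means lie below the control mean.

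Among 18193 genes, each on its brightest probe set, 31 had a difference as low as that of Socs2 or lower, and 69 as low as that of Cish or lower, these 2 genes included. The median difference of all genes was -0.01, and 2.39% of genes differed by at least 1 in either direction. By limma, 0 of 45037 probe sets passed a Benjamini-Hochberg adjusted p of 0.05, so the share called was 0%, and 1975 had an unadjusted p under 0.05. Arrays with equal replicate numbers were also set side by side, although the labels do not state that they form pairs. In each such pair all 7 probe sets of Socs2 and Cish were lower in SRF-null cells. For probe sets whose groups do not overlap, this follows from the separation and adds nothing to it. For the brightest Socs2 probe set the differences in pairs 1 to 3 were -1.58, -2.89 and -1.88, and for Cish they were -1.70, -1.82 and -1.21.

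Control replicate 2, which carried no Y-linked transcripts, had the highest normalized log2 signal on all 7 of these probe sets. In the deposited intensities this held for 5 of the 7, since control replicate 1 was higher on 1438470_at (93.0 against 85.6) and on 1446085_at (99.8 against 93.0). Without it the difference on the brightest Socs2 probe set was -1.66, the nearest to 0 among the alternatives. Without control replicate 2 and SRF-null replicate 1, the arrays with transcripts of 1 sex, it was -1.78, and that of Cish was -1.18. The direction was the same for all 7 probe sets in each of the 7 analyses that left out arrays. On probe sets whose groups do not overlap, leaving out arrays could not have turned it. On 1442586_at, where they overlap, the difference was -1.90 to -0.99.

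Socs3, the STAT3-induced inhibitor that binds the interleukin-6 receptor subunit gp130 and JAKs, varied between arrays of 1 genotype more than between genotypes. On its brightest probe set, 1455899_x_at, the intensity was 2186, 10681 and 10170 in controls and 15600, 6216 and 5485 in SRF-null cells. Control replicate 1 was the lowest and SRF-null replicate 1 the highest array, and the other 4 lay between them. The log2 means were 12.54 ± 1.37 and 13.01 ± 0.80 (difference 0.47, SE 0.76), with a range of 2.40 within controls, or 5.26-fold. The probe sets 1456212_x_at and 1416576_at had the same lowest and highest arrays, with differences of 0.59 (SE 0.82) and 0.09 (SE 0.85). Without control replicate 1 the 3 differences turned to -0.32, -0.28 and -0.79. Without SRF-null replicate 1 the difference on the brightest probe set was 0.01, and on 1416576_at it was -0.06 without control replicate 2 and SRF-null replicate 1. The direction on Socs3 thus depends on control replicate 1, and on 1416576_at it depends on SRF-null replicate 1 as well. On the brightest probe set the size of the difference also depends on SRF-null replicate 1. The mean log2 level of 13 genes induced by stress and cell dissociation was 10.43, 10.13 and 12.02 in controls and 9.60, 11.32 and 10.56 in SRF-null cells. Their part in the Socs3 spread was not tested.

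Socs1, the interferon-induced inhibitor of JAKs, was dim on its 1 probe set, 1450446_a_at. The intensity was 31.1, 65.7 and 82.3 in controls and 36.5, 36.3 and 62.4 in SRF-null cells, and the groups overlapped. The log2 means of 6.23 ± 0.68 and 5.91 ± 0.37 differed by -0.32 (SE 0.38), less than the SD within controls. The value moved with single arrays, to -0.70 (SE 0.27) without control replicate 1 and to -0.04 (SE 0.38) without control replicate 3.

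Socs4 and Socs5, close relatives with a long stretch ahead of the SH2 domain and a described action on the epidermal growth factor receptor, had small differences on their brightest probe sets. Socs4 on 1455142_at had intensities of 11523, 12526 and 11111 in controls and 12355, 10933 and 11977 in SRF-null cells, a log2 difference of 0.04 (SE 0.12). The other 3 Socs4 probe sets disagreed in sign, at 0.57 (SE 0.30), 0.37 (SE 0.27) and -0.53 (SE 0.64), and the groups overlapped on each. Within number pairs 1421275_s_at was higher in all 3, by 0.72, 0.63 and 0.35. Its SE with the replicate block, which assumes that numbers pair the arrays, was 0.15. Socs5 on 1423350_at had intensities of 12276, 9885 and 10350 in controls and 9837, 9020 and 7574 in SRF-null cells. Its groups met at the edge with an overlap of 0.01 on the log2 scale, and the difference was -0.27 (SE 0.16) there and -0.03 (SE 0.19) on the other probe set. The number pairs on 1423350_at differed by -0.32, -0.09 and -0.42, with an SE of 0.14 with the replicate block, on the same assumption.

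Socs6 and Socs7, the remaining pair of relatives, act on receptor tyrosine kinases and insulin signalling, and Socs6 is known to bind the stem cell factor receptor Kit. Socs6 on 1435492_at had intensities of 9092, 9042 and 8010 in controls and 10467, 8688 and 7375 in SRF-null cells, a difference of 0.04 (SE 0.16). On 1450129_a_at its groups were just separate, by 0.01, with intensities of 1984, 2283 and 2782 against 2946, 2983 and 3475. The difference was 0.46 (SE 0.21), and the separation by itself makes it higher in all 3 number pairs. The remaining probe set, 1452764_at, differed by 0.16 (SE 0.29), so the separation on 1 probe set was not seen on the others. Socs7 on 1455402_at had intensities of 43009, 44495 and 46205 in controls and 43918, 49181 and 42438 in SRF-null cells. Its 4 probe sets differed by -0.13 to 0.13, and the groups overlapped on all 4.

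**Figure D3:**
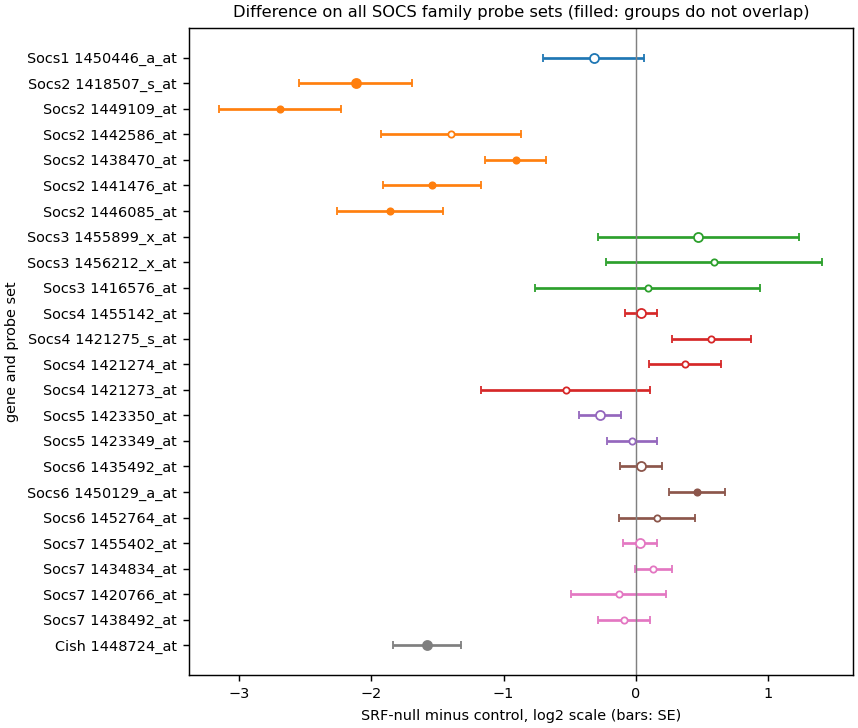
Difference between SRF-null and control cells (horizontal axis, log2 scale; bars, SE) for each of the 24 SOCS family probe sets, larger symbols marking the brightest probe set of a gene and filled symbols groups without overlap. The Socs2 and Cish points lie between -2.69 and -0.91, and the others between -0.53 and 0.59.

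The genes whose log2 signal followed that of Socs2 most closely over the 6 arrays were Tnfaip8, Matk, C730049O14Rik, AW209491 and Ppp1r12c, out of 9096 genes at or above the median level. Their Pearson r with Socs2 was 0.986 to 0.995 and their Spearman rho 0.886 to 1.000. Without control replicate 2 and SRF-null replicate 3, the 2 arrays farthest from the Socs2 median, r was 0.957 to 0.997. Their own differences, -0.36 to -0.22, were much smaller than that of Socs2. Cish ranked 52 in this list, with r = 0.931 and rho = 0.771. The 6 arrays fall into 2 genotypes, which all of these genes share, so r describes likeness over these arrays and carries no p. Of the other members in the list, Socs5 had r = 0.601 and the 4 others, Socs3, Socs4, Socs6 and Socs7, had -0.172 to 0.101.

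The rest of the pathway was described through lists of other genes on their brightest probe sets, of which 0 members passed the limma threshold in either direction. Separation of the groups in either direction was seen for 10.6% of all 18193 genes. Among 10 measured JAK and STAT genes 4 were higher and 6 lower (median -0.13), and 1, Stat5b, was separate. Stat5a, the other gene of STAT5, had log2 means of 16.04 ± 0.10 and 16.06 ± 0.09, and Stat5b 14.90 ± 0.14 and 15.08 ± 0.02. Stat3 differed by -0.33 (SE 0.21), Stat4 by -0.21 (SE 0.16) and Tyk2, a kinase of interferon receptors, by -0.15 (SE 0.12). On these probe sets the mean of neither STAT5 gene was lower in SRF-null cells, and a dimmer Stat5b probe set differed by -0.08 (SE 0.34). These are transcript levels and not phosphorylation, and the part of STAT5 in the Socs2 and Cish signals was not tested.

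Of 12 measured STAT5 target genes other than family members 9 were lower and 3 higher, with a median difference of -0.19, where 9356 of all 18193 genes were lower. These counts take no account of whether STAT5 raises or lowers a gene. Groups were separate for 4, of which 2 were lower, Pim1 and Mcl1 (-0.12, SE 0.11), and 2 were higher. The higher ones were Ccnd1, the cyclin D1 gene, at 1.18 (SE 0.40, limma adjusted p = 0.808) and Bcl6, a repressor gene, at 0.43 (SE 0.17, adjusted p = 0.858). Myc differed by -0.55 (SE 0.34) and the cytokine gene Osm by -0.43 (SE 0.28), both with overlap. Pim1, a kinase gene induced by STAT5 and STAT3, differed by -0.14 (SE 0.12) on its brighter probe set and by -2.96 (SE 0.64) on its dimmer one, 1423006_at. The log2 signal of the latter was 10.56, 12.00 and 10.91 in controls and 8.19, 7.09 and 9.30 in SRF-null cells, with control replicate 2 again highest. Its probe sets thus disagree in size, and the second was singled out after its value was seen.

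STAT3 targets (14 measured) had 9 lower and 5 higher, with a median of -0.12 and 4 separate, all lower. The separate genes were the immediate early genes Egr1 (-1.20, SE 0.36) and Junb (-0.86, SE 0.23), and Pim1 and Mcl1, which the STAT5 list also holds. Fos differed by 3.10 (SE 1.69) with overlapping groups.

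Among 27 measured cytokine receptor genes 16 were higher and 11 lower, with a median of 0.09 and 5 separate, all higher. Lifr, the receptor gene of leukemia inhibitory factor, had log2 means of 6.81 ± 0.58 and 8.53 ± 0.72, a difference of 1.72 (SE 0.44, limma adjusted p = 0.641). Its other probe sets gave 0.39 (SE 0.18) and 0.17 (SE 0.33). Il7r differed by 2.11 (SE 0.50, adjusted p = 0.610). The genes of the interleukin-6 receptor, which SOCS3 restrains, were higher on their brightest probe sets. Il6st, the gene of gp130, differed by 0.47 (SE 0.19, limma adjusted p = 0.858) and Il6ra by 0.26 (SE 0.11, limma adjusted p = 0.858). Other Il6st probe sets gave 0.97 (SE 0.32, separate), 0.34 (SE 0.47) and 0.17 (SE 0.55). The dimmer Il6ra probe set gave 0.35 (SE 0.18) with overlap. Picked afterwards for their known link to a family member, Ghr, the target of SOCS2, differed by -0.33 (SE 0.41), Epor by 0.20 (SE 0.65) and Il2rb by 0.20 (SE 0.60). In the same way Csf3r and Lepr, linked to SOCS3, differed by -0.22 (SE 0.14) and 0.29 (SE 0.45), Csf2rb by 0.07 (SE 0.25) and Ifngr1, linked to SOCS1, by 0.28 (SE 0.12). Among these 7 genes the groups were separate for Ifngr1, and 0 passed the threshold. Il2rg, Il11ra1 and Prlr were not analysed here.

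Of 21 measured ligand genes 8 were higher and 13 lower (median -0.04), and 8 were under an intensity of 16 on all 6 arrays. Il12a, a subunit of interleukin-12, differed by 0.97 (SE 0.33, limma adjusted p = 0.808) and Il11 by 0.72 (SE 0.23, adjusted p = 0.779), both separate. Il10 differed by -0.66 (SE 0.41) and Gh by 0.46 (SE 0.22) at low signals. Il11 was at a low signal as well, with log2 means of 4.96 in controls and 5.68 in SRF-null cells.

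Other inhibitors of cytokine signals (22 measured) had 9 higher and 13 lower genes, with a median of -0.08 and 4 separate, 2 in each direction. Spred2 (0.60, SE 0.20) and Spry2 (0.39, SE 0.17), both inhibitors of the Ras pathway, were higher on their brightest probe sets with overlap on all others. Spry4 (-0.41, SE 0.14) was lower at a signal near the bottom of the scale. Its other probe sets gave -0.63 (SE 0.17, separate), -0.22 (SE 0.18) and 0.16 (SE 0.25). Spry1 differed by -1.12 (SE 0.44) with overlap. Ubiquitin ligase subunits that SOCS boxes recruit (8 measured) had a median of 0.00, with 4 higher, 4 lower and 1 separate in each direction. Elob, the gene of elongin B, differed by 0.07 (SE 0.14), Cul5 by 0.13 (SE 0.24), Nedd8 by 0.11 (SE 0.11) and Rbx1 by -0.33 (SE 0.13). Among 26 other genes with a SOCS box 14 were higher and 12 lower (median 0.03), and 1 was separate, Asb4, at -1.09 (SE 0.33) on its brighter and -0.24 (SE 0.15) on its dimmer probe set. Rab40b (-0.95, SE 0.57), Asb11 (0.39, SE 0.22) and Asb16 (-0.39, SE 0.28) overlapped.

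**Figure D4:**
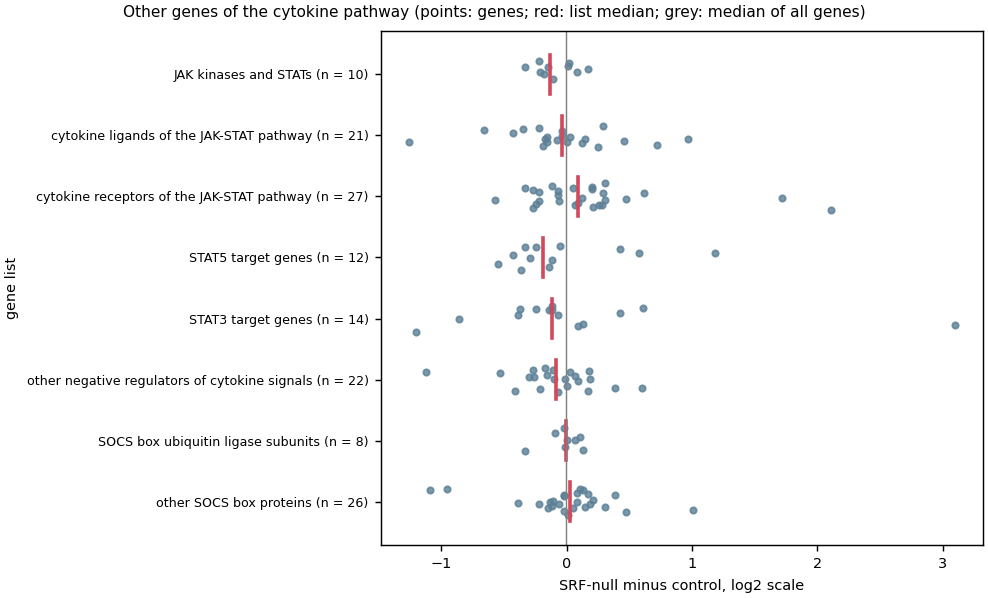
Difference between SRF-null and control cells (horizontal axis, log2 scale) of each measured gene (points) in 8 lists of cytokine pathway genes without the SOCS family members, with list medians in red and the median of all genes in grey. List medians lie between -0.19 and 0.09, and none of these genes passed the adjusted threshold.

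Markers of the sorted fraction were bright in both groups, with Kit at 15.09 ± 0.31 and 14.89 ± 0.08 and Cd34 at 16.74 ± 0.03 and 16.85 ± 0.10 on the log2 scale. Ly6a, the Sca1 gene, was not analysed here. Of 10 measured markers of LSK and stem cells 3 were higher and 7 lower, with a median difference of -0.17. On the brightest probe sets the groups were separate for 1, Tek (-0.84, SE 0.18), and overlapped for Slamf1 (-1.40, SE 0.61). The other 8 differed by -0.36 to 0.13. On both dimmer Slamf1 probe sets the groups were separate, at -1.53 (SE 0.51) and -0.75 (SE 0.24). The dimmer Mecom probe sets gave -0.63 (SE 0.23, separate) and -0.09 (SE 0.71, overlapping). The mean level of the 10 markers was 14.74 to 15.11 in controls and 14.25 to 14.84 in SRF-null cells. Markers of some other cell types were mostly higher in SRF-null cells. Of 10 monocyte and macrophage markers 10 were higher in SRF-null cells, 3 without overlap, and their mean level was 9.60 to 9.95 in controls and 10.07 to 11.47 in SRF-null cells. Of 11 T and NK cell markers 9 were higher, 4 without overlap, and 2 were lower, among them Gzmb (-1.22, SE 0.54). Their mean levels overlapped, at 6.97 to 7.41 in controls and 7.23 to 8.63 in SRF-null cells. Cd3g was under an intensity of 16 on all arrays. Separation in either direction was seen for 10.6% of all genes. None of the LSK, monocyte and macrophage, or T and NK markers passed the limma threshold. The means of B cell, granulocyte, erythroid and mast cell markers also overlapped between genotypes, and Pax5, Alas2 and Hba-a1 were under 16 on all arrays. The part of these shifts in the lower Socs2 and Cish signals was not tested, and in sorted pools fewer cells of a type and less RNA per cell cannot be told apart.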

How the data were processed

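RNA from sorted LSK pools (30 ng per array, per the labels) was amplified, biotin-labelled and hybridised to 6 Affymetrix arrays. The deposited values are linear intensities, 1 per probe set and array; the authors' background correction, summary method and scaling are unstated in the sources used here, and the study's text and the annotation differ on the array type. Of 45101 probe sets, 64 Affymetrix controls were left out of the tests. Intensities were converted to log2(value + 16), which understates differences of dim probe sets, and quantile normalized. Between 26.0% and 26.9% of probe sets lay under 16 on each array. Detection calls were not used. Precision is limited by the number of arrays.

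All 45037 probe sets were fitted on genotype alone by lmFit and eBayes of limma 3.58.1 (R version 4.3.3), with Benjamini-Hochberg adjustment and a threshold of 0.05; the fit was also tested on simulated data. Pathway and marker lists used 1 probe set per gene, the brightest of those naming that gene alone, fitted and adjusted over 18193 genes. The text names all members, Srf and the up to 4 genes of each pathway list with the smallest p. It also names the 5 genes most like the member with the widest range. Outside this rule, Stat5a was named as the other gene of STAT5 and Mcl1 because its groups were separate. Mocs1 and Ccnb1ip1 were named because they passed in an alternative. Others are said to be picked afterwards, and marker genes were named to describe the samples. The members, lists and tests were chosen with earlier results of these data known.

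Whether equal replicate numbers pair the arrays was checked from deviations from the group means over 18193 genes, which correlated at 0.198, 0.125 and 0.367 for numbers 1 to 3. All were above 0.1, and pairs by number are given as a description. Unequal numbers were not compared and the labels do not state a pairing, so the check cannot show that the numbers pair the arrays. Alternatives were other offsets, scalings, filters, probe set rules and variance models, a replicate block and left-out arrays. One pathway list and a receptor gene are not reported here. Promoter windows came from RefSeq (GRCm38.p6). Figures were drawn with matplotlib 3.10.9.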

Additional observations from a re-analysis of the deposited data

How the results depend on the processing

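The count of probe sets or genes past the adjusted threshold was 0 in 14 of 16 alternatives, among them the fit with the replicate number as a block (0). It was 1 after median centring, where Mocs1 passed, and ranged from 0 to 1 when arrays were left out, with Ccnb1ip1 passing without control replicate 2; no SOCS family probe set passed in any of the 16. On their brightest probe sets Socs2, Cish and Socs5 kept a negative difference in all 16 and Socs1 in all 15 that gave it a value (it is too dim for the filter at the median level), over -0.70 to -0.04, with the ends reached without control replicates 1 and 3. Socs2 ranged from -2.43 to -1.66 and Cish from -1.70 to -1.18. Leaving out arrays could not turn the sign of either, since their groups do not overlap on these probe sets. The value of -1.18, without control replicate 2 and SRF-null replicate 1, moved by more than 1 SD from -1.58. Socs3 ranged from -0.32 to 0.88, and Socs4 (-0.02 to 0.11), Socs6 (-0.08 to 0.22) and Socs7 (-0.05 to 0.08) stayed near 0, with both signs among the alternatives. Dim Socs2 probe sets changed in size with the offset, not in sign. The spread between 3 arrays per group limits what can be detected.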
